A study of Mus musculus with 6 samples.

Results

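The 4 mature microRNAs (miRNAs) described here are the 2 arms of the miR-126 precursor, mmu-miR-126-3p and mmu-miR-126-5p, and the major arms of mmu-miR-10a and mmu-miR-10b. They were taken by name from a table of 698 mature mouse miRNAs, and all 4 were abundant enough to be tested. Each library was made from the left ventricle of a mouse aged over 50 weeks. The mutant group held 3 animals with the genotype aMHC403/+, that is, with the R403Q change in Myh6, the gene of the cardiac alpha-myosin heavy chain, on a single allele. HCM in the labels is read as hypertrophic cardiomyopathy, an inherited thickening of the heart muscle. The labels give neither strain nor sex. The other group held 3 wild-type (WT) animals, and neither group had a further treatment. The tissue was the whole left ventricle, so fewer cells of a type and less RNA per cell cannot be told apart. The labels call the samples biological replicates without naming litters or cultures, so that p-values measure the spread between these samples.

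miR-126 lies within Egfl7, the gene of a protein secreted by endothelial cells, and is a defining miRNA of the cells that line blood vessels. In mouse endothelium miR-126-3p represses Spred1 and Pik3r2, which restrain signalling by vascular endothelial growth factor, and miR-126-5p represses the Notch ligand Dlk1. miR-10a and miR-10b lie within the HoxB and HoxD clusters, whose homeobox genes pattern the body axis. Both miR-10 genes are active in endothelium, where miR-10a restrains inflammatory signalling in human cells and miR-10 acts on blood vessel growth in zebrafish. Their minor arms, and the miR-196 and miR-615 genes of the same Hox clusters, are described after the major arms.

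The mature sequences are shown because they decide which reads can be told apart, and which of these miRNAs are expected to share targets. They are given 5′ to 3′ as deposited, with T for U, and the capitals mark the seed (bases 2 to 8), which pairs with target messenger RNAs. miR-100 is added as a relative of miR-10 whose 5′ end is alike but whose seed differs.
miR-126-3p: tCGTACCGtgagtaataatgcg
miR-126-5p: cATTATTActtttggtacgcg
miR-10a: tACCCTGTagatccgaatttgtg
miR-10b: tACCCTGTagaaccgaatttgtg
miR-100: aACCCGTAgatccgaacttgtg
miR-10a and miR-10b shared the seed ACCCTGT and differed at 1 of 23 bases, T12A with miR-10a first and positions counted from the 5′ end. No other miRNA of the table had this seed, and no other had the seed of either miR-126 arm. The seed of miR-100, ACCCGTA, was shared with miR-99a and miR-99b and not with miR-10. Whether the authors' counting allowed mismatches is not given in the sources used here, so the split of reads between miR-10a and miR-10b is uncertain to that extent.

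Each of the 4 sequences matched exactly 1 hairpin of RefSeq (build GRCm38.p6). The hairpins are printed with both mature arms of the deposited table in capitals, to show where on the precursor the counted reads lie.
Mir126a: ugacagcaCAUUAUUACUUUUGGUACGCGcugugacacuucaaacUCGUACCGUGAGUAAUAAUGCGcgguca
Mir10a: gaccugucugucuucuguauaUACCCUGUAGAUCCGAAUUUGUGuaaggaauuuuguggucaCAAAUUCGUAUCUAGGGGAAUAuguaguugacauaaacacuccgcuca
Mir10b: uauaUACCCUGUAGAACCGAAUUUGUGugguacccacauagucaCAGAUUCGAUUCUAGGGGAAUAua
All 3 hairpins lie on the plus strand. Mir126a occupies chr2:26591357-26591429, with miR-126-5p at chr2:26591365-26591385 and miR-126-3p at chr2:26591402-26591423. In GENCODE M21 (GRCm38) it lay in an intron of 8 Egfl7 transcripts and overlapped an exon of 1. Mir10a occupies chr11:96317165-96317274, with miR-10a at chr11:96317186-96317208, between genes, 992 bases before Hoxb4. Mir10b occupies chr2:74726070-74726137, with miR-10b at chr2:74726074-74726096, in an intron of 2 Hoxd4 transcripts and of 1 Hoxd3 transcript.

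Levels are given as RPM, the reads of an miRNA per 1000000 miRNA reads of its library. The mutant libraries held 2483486 to 4267939 reads and the WT libraries 3647223 to 5223636. A count of 0 allows up to 3 reads, or 0.703 to 1.21 RPM in the mutant and 0.574 to 0.823 RPM in WT libraries, for counting error only. The 6 listed heart muscle miRNAs made up 40.1% to 46.3% of the mutant reads and 42.5% to 50.4% of the WT reads, and of the 5 that were tested 1 passed as higher, miR-208b. Only 2 of these 5 had a log2 difference above 0, with a median of −0.14, and miR-499, named after its values were seen, had −0.55 with all mutants below all WT libraries (limma adjusted p = 0.0559). The 7 listed miRNAs of liver, neurons and epithelium together reached 32.6 to 35.6 RPM in the mutant and 30.9 to 43.1 RPM in WT libraries. miRNA reads do not measure the change in Myh6 itself, so the genotype labels could not be checked. Tests on log2(RPM + 1) used limma, which draws the spread of each miRNA towards the trend with level over all tested. They covered the 193 miRNAs whose average reached 10 RPM, and a Benjamini-Hochberg adjusted p under 0.05 counted as passing. Of these, 5.18% passed as higher in the mutant and 0 passed as lower, against 38 (19.7%) and 4 at an unadjusted p under 0.05. edgeR on whole reads called 8 higher and 1 lower. This balance depended on the scaling: median-of-ratios scaling gave 5 calls higher and 1 lower, totals without the 5 most abundant miRNAs 6 and 1, and DESeq2 8 and 4. At an unadjusted p under 0.05 there were 24 higher and 17 lower after median-of-ratios scaling, and 22 and 18 with DESeq2.

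None of the 4 miRNAs passed in the mutant ventricle. Both miR-126 arms and miR-10a had log2 differences between 0.042 and 0.15, no higher than the median of 0.15 over all tested miRNAs. miR-10b, the least abundant of the 4, stood 1.60 times as high in the mutant mean as in the WT mean, with all 3 mutant libraries above all 3 WT libraries.

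miR-126-3p was the eleventh most abundant miRNA of the ventricle by its mean. Its level was 25280.3, 20406 and 22466 RPM in mutant replicates 1 to 3, and 19178, 25976 and 17140.4 RPM in WT replicates 1 to 3. WT replicate 2 was the highest of all 6 libraries and the other WT libraries were the lowest, so that the groups overlapped. The means were 22717.5 ± 2447 RPM in the mutant and 20765 ± 4627 RPM in WT (SD, n = 3 each). On the log2(RPM + 1) scale the difference, mutant minus WT, was 0.15 ± 0.18 (SE; 95% interval −0.21 to 0.50; limma adjusted p = 0.670). Counting error was far smaller than this spread, since the fewest reads of miR-126-3p in a library were 55793.

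miR-126-5p, from the other arm of the same hairpin, ranked at position 21. It had 11943, 10069.9 and 10491 RPM in mutant replicates 1 to 3, and 9159, 12297 and 9801 RPM in WT replicates 1 to 3. The order of the libraries was close to that of miR-126-3p, with WT replicate 2 and mutant replicate 1 on top. The means were 10835 ± 983 RPM in the mutant and 10419 ± 1658 RPM in WT (SD, n = 3 each). The log2 difference was 0.064 ± 0.18 (SE; 95% interval −0.30 to 0.43; limma adjusted p = 0.829). It was −0.0079 without mutant replicate 1 and −0.023 without WT replicate 1 (limma adjusted p = 0.978 and 0.965). Without WT replicate 2 it was 0.19 (limma adjusted p = 0.486), and that of miR-126-3p was 0.32 (limma adjusted p = 0.211).

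miR-10a was far less abundant, with 78.6 to 135 reads of miR-126-3p for each of its own in the mutant and 90.1 to 115 in WT libraries. Its level was 322, 151 and 199 RPM in mutant replicates 1 to 3, and 213, 226 and 185 RPM in WT replicates 1 to 3. The mutant libraries held both the highest and the lowest value of the 6, with the WT libraries between them. The means were 224 ± 87.9 RPM in the mutant and 208 ± 20.99 RPM in WT (SD, n = 3 each), a coefficient of variation of 39.2% among mutants and 10.1% among WT animals. The fewest reads in a library were 495, which gives a sampling error of 4.49%. The log2 difference was 0.042 ± 0.25 (SE; 95% interval −0.47 to 0.55; limma adjusted p = 0.924). It was −0.25 without mutant replicate 1 and −0.039 without WT replicate 3 (limma adjusted p = 0.644 and 0.990), so that its direction rested on single libraries.

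miR-10b, which has the same seed, had 138, 131 and 174 RPM in mutant replicates 1 to 3, and 71.3, 119.9 and 85.8 RPM in WT replicates 1 to 3. The lowest mutant library, replicate 2, was above the highest WT library, also replicate 2. The lowest value, in WT replicate 1, rested on 260 reads (95% Wilson interval 63.1 to 80.5 RPM). In contrast, the Wilson intervals of mutant replicate 2 (120.4 to 142 RPM) and WT replicate 2 (109 to 132 RPM) overlapped. The means were 148 ± 23.1 RPM in the mutant and 92.3 ± 25.0 RPM in WT (SD, n = 3 each). The log2 difference was 0.69 ± 0.25 (SE; 95% interval 0.19 to 1.19), the 16th highest of 193, with an unadjusted p of 0.00787 and a limma adjusted p of 0.0823. It did not pass. All mutants lay above all WT animals for 35 of the tested miRNAs, or 18.1%, and below them for 5, or 2.59%. Of the 4 miRNAs 1 was of the first kind and 0 of the second, near this background. Without WT replicate 2 miR-10b passed (0.90, limma adjusted p = 0.0223), and without mutant replicate 3 its adjusted p was 0.463 (0.57, limma).

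**Figure D1:**
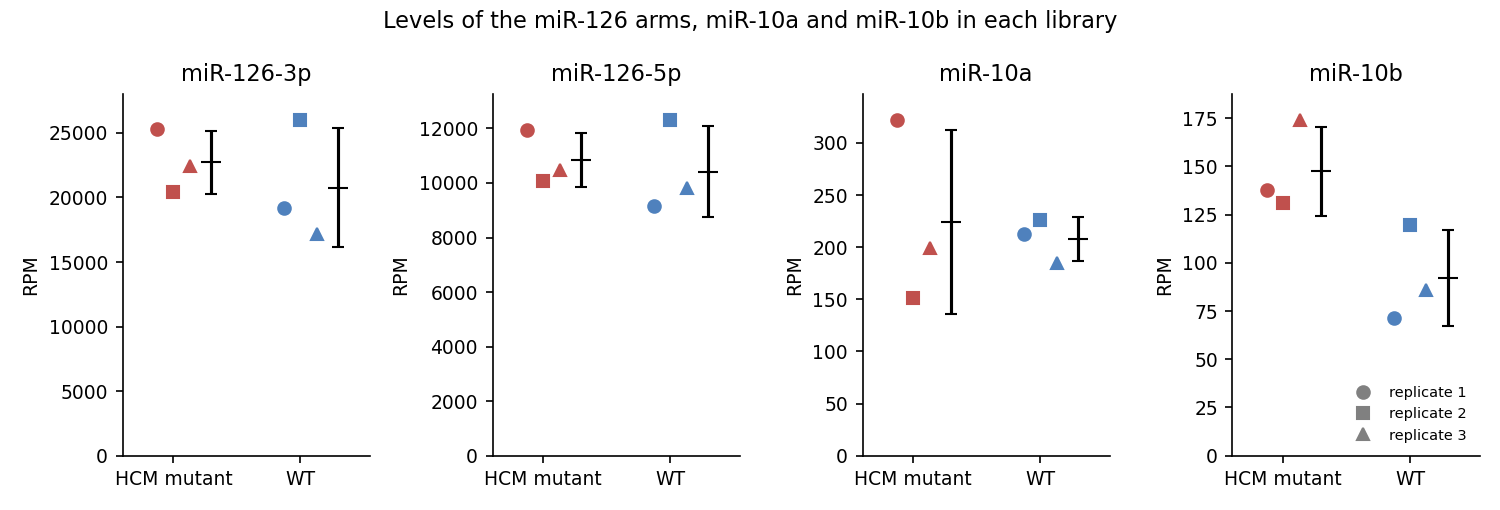
Level of each miRNA in RPM (vertical axes from 0, a scale for each panel) in the 3 HCM mutant and 3 WT libraries. Symbols are single libraries, with the shape giving the replicate number, and the bar beside them is the mean ± SD (n = 3). The groups overlap for miR-126-3p, miR-126-5p and miR-10a, and all mutants lie above all WT libraries for miR-10b only.

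**Figure D2:**
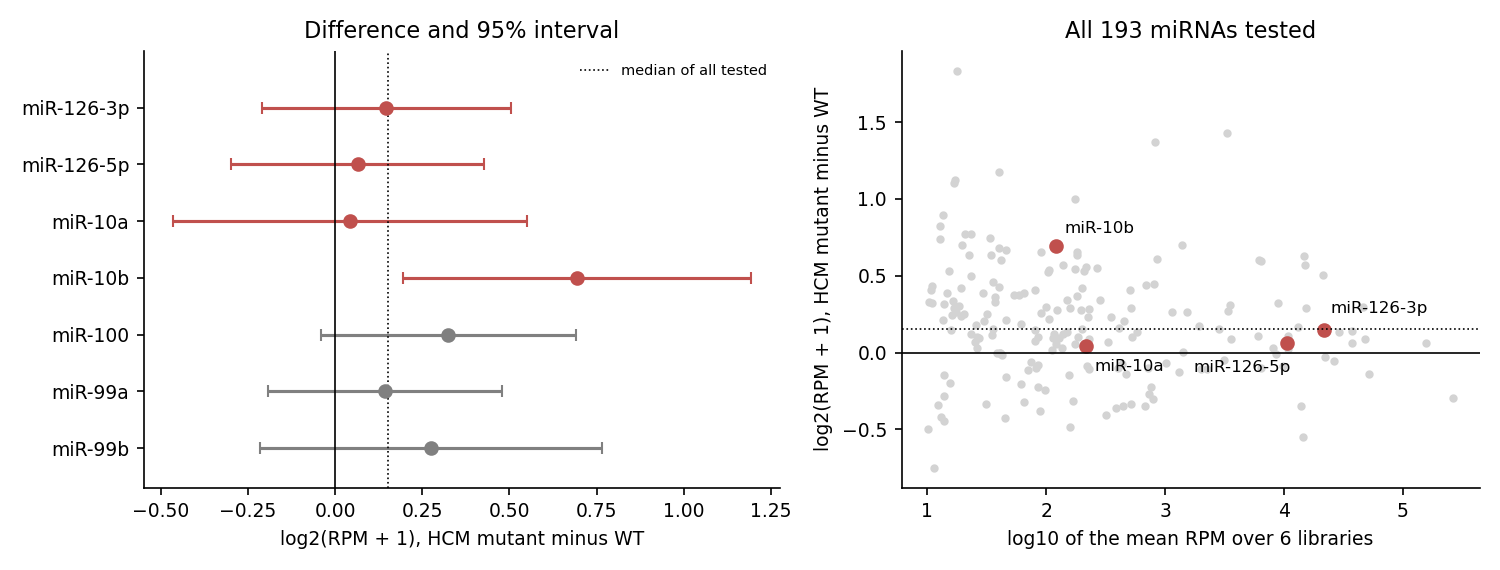
Left, log2 difference of RPM + 1, HCM mutant minus WT, with its 95% interval (limma), for the 4 miRNAs (red) and their miR-99 and miR-100 relatives (grey); the dotted line is the median of all tested, 0.15. Right, the same differences against the log10 mean level of all 193 tested miRNAs, where miR-10b sits above most miRNAs of its level and the other 3 sit near the median.

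The order of the levels was the same in all 6 libraries, miR-126-3p above miR-126-5p above miR-10a above miR-10b. The 2 miR-126 arms did not overlap over the libraries, whereas the range of miR-10a (151 to 322 RPM) overlapped that of miR-10b (71.3 to 174 RPM). The 4 are 21 to 23 bases long, and the order is one of read shares (RPM), not of molecules. In the whole ventricle, miR-126-3p stood beside miR-29a (mean 22273 RPM) and miR-23b (mean 21174 RPM), whose ranges overlapped its own. miR-10b stood beside miR-148a (mean 122 RPM) and miR-186 (mean 116 RPM), likewise with overlapping ranges. The spread within groups on the log2 scale was 0.25 for miR-126-3p, equal to the median of all tested, and lower for miR-126-5p at 0.18. It was 0.31 for miR-10b and 0.40 for miR-10a, and that of miR-10a stood at percentile 83.9 of all tested.

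Ratios between the 4 miRNAs within a library do not depend on how libraries are scaled, and they describe how the 4 compared in their change. All 6 pairs were compared with a two-sided exact permutation test over the 20 assignments of 3 against 3 animals, which allows no p below 0.1. The 2 arms of miR-126 kept a nearly fixed ratio. miR-126-5p had 0.472, 0.493 and 0.467 reads per read of miR-126-3p in mutant replicates 1 to 3, and 0.478, 0.473 and 0.572 in WT replicates 1 to 3. Of the 6 libraries 5 lay within 0.467 to 0.493, and WT replicate 3 stood above them. The log2 ratio differed by −0.083 between mutant and WT (exact permutation p = 0.5, adjusted over the 6 pairs 0.75), and by 0.0061 without WT replicate 3.

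miR-10a to miR-10b was less even. The ratio was 2.33, 1.15 and 1.15 in mutant replicates 1 to 3, and 2.98, 1.88 and 2.15 in WT replicates 1 to 3. Mutant replicates 2 and 3 had the lowest ratios, and mutant replicate 1 lay among the WT libraries. The log2 ratio differed by −0.65 (exact permutation p = 0.3, adjusted 0.6). miR-126-3p to miR-10b was 183, 156 and 129 in mutant replicates 1 to 3, and 269, 217 and 199.9 in WT replicates 1 to 3, with no overlap between the groups. The difference of −0.55 on the log2 scale reached the smallest p that the exact permutation test can give, 0.1 (adjusted 0.3), and so did miR-126-5p to miR-10b (−0.63, exact permutation p = 0.1, adjusted 0.3). The ratios of the miR-126 arms to miR-10a differed by 0.10 for miR-126-3p and 0.022 for miR-126-5p (exact permutation p = 0.8 and 1). None of the 6 pairs could pass in the exact permutation test, whose smallest p is 0.1.

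Set against the summed reads of the 6 heart muscle miRNAs in the same library, miR-10b had 0.326, 0.283 and 0.434 reads per 1000 in mutant replicates 1 to 3, and 0.144, 0.282 and 0.170 in WT replicates 1 to 3. The mutants lay above WT replicates 1 and 3 by a wide margin and above WT replicate 2 by a narrow one. This log2 ratio differed by 0.84 (exact permutation p = 0.1, adjusted over the 4 miRNAs 0.4; p = 0.2 with a pseudocount of 10 RPM). The heart muscle sum averaged 429208 RPM in the mutant and 474979 RPM in WT, with overlap. This lower mutant sum raises the ratio differences of all 4 miRNAs alike above their RPM differences. For miR-126-3p the means were 53.3 ± 8.18 per 1000 in the mutant and 44.6 ± 14.5 per 1000 in WT (SD, n = 3 each), with overlap and a log2 difference of 0.29 (exact permutation p = 0.4, adjusted 0.533). The differences were 0.21 for miR-126-5p and 0.19 for miR-10a (exact permutation p = 0.4 and 0.7), also with overlap. The miR-10a difference was −0.12 without mutant replicate 1.

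**Figure D3:**
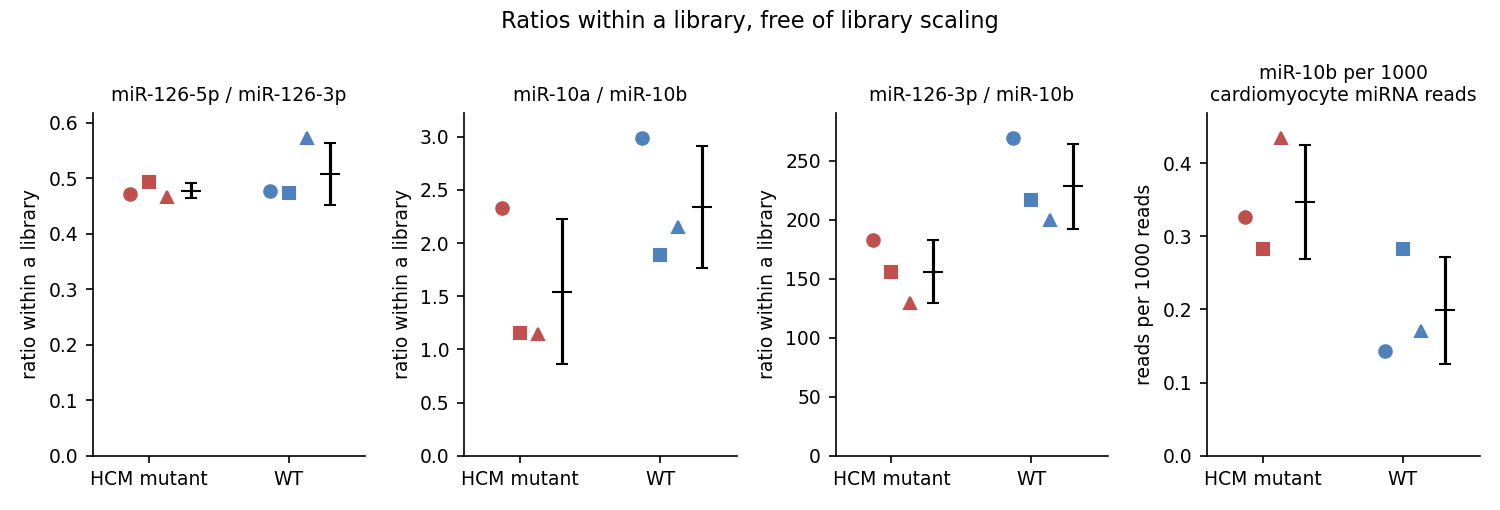
Ratios of reads within a library (vertical axes from 0) in HCM mutant and WT libraries, with single libraries as symbols by replicate number and the mean ± SD beside them (n = 3 each). The miR-126 arm ratio lies between 0.467 and 0.493 in 5 of 6 libraries; the groups separate for miR-126-3p to miR-10b and, narrowly, for miR-10b per 1000 heart muscle miRNA reads.

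The minor arms of the miR-10 hairpins were almost absent. miR-10a* had 1, 0 and 1 reads in mutant replicates 1 to 3 and 0 in all WT libraries. miR-10b* had 1 read in mutant replicate 1 and 0 elsewhere. Both stayed at or under the 3 reads that a count of 0 allows, while their major arms had 260 to 1373 reads in each library. The miR-126 hairpin differed from this, with 26055 to 51199 reads of its less abundant arm in a library. Of the 9 listed miRNAs of the Hox clusters, arms counted separately, only miR-10a and miR-10b were tested, and they made up 98.9% to 99.7% of the summed reads of the list. miR-196a, which represses Hoxb8 in mouse, had 1, 2 and 1 reads in mutant replicates 1 to 3, against 8, 5 and 5 reads in WT replicates 1 to 3. Every mutant library was below every WT library, and the mutants lay under the 3-read floor. How often such a separation occurs among miRNAs this rare was not counted, so no decrease is read from it. From 4 reads in the mutant and 18 in WT the ratio of rates was 0.257 (exact 95% interval 0.0632 to 0.779, counting error only, not the spread between animals), and it was too rare to be tested. miR-196b ran the other way, with 7, 4 and 1 reads in mutant and 3, 2 and 1 reads in WT replicates 1 to 3. Its groups overlapped, and the ratio of 2.31 had an interval of 0.802 to 7.50. miR-615-3p had 1 read in each group in all, and miR-196a* and miR-615-5p had none.

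Of the relatives with a similar 5′ end, miR-100 was higher in each mutant than in every WT library, with 10144, 9336 and 10255 RPM in mutant replicates 1 to 3, and 8842, 8365 and 6689 RPM in WT replicates 1 to 3. Such a separation was found for 18.1% of the tested miRNAs. The log2 difference of miR-100, 0.32 ± 0.18 (SE), did not pass (limma adjusted p = 0.297). It was 0.17 after median-of-ratios scaling (limma adjusted p = 0.565) and 0.13 with DESeq2 (DESeq2 adjusted p = 0.750). miR-99a, the most abundant of the group, averaged 38971 ± 4676 RPM in the mutant and 35438 ± 5455 RPM in WT (0.14 ± 0.16, limma adjusted p = 0.655). miR-99b, at the level of miR-10b, averaged 135 ± 17.6 RPM in the mutant and 113 ± 25.8 RPM in WT (0.28 ± 0.24, limma adjusted p = 0.521). None of these 3 passed, and miR-10b had a higher estimate than each, with intervals that overlapped.

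To describe which miRNAs followed the 4 most closely over the 6 libraries, each log2(RPM + 1) profile was centred on its own mean, and the root mean square difference from every other tested miRNA was taken. The closest to miR-126-3p was miR-28, at 0.052, followed by miR-151-3p at 0.073, against a median of 0.26 over all tested. miR-28 had 2238, 1868 and 2029 RPM in mutant and 1651, 2212 and 1621 RPM in WT replicates 1 to 3, with the same high libraries, mutant replicate 1 and WT replicate 2. For miR-126-5p the closest were miR-28 at 0.070 and miR-139-5p at 0.076, and its partner arm miR-126-3p came 7th at 0.10. For miR-10a they were miR-2142 at 0.089 and miR-140 at 0.14. miR-2142 had 114, 63.5 and 74.9 RPM in mutant and 84.4, 83.3 and 65.9 RPM in WT replicates 1 to 3, and shared the wide spread of the mutants.

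miR-10b lay closest to miR-199a-3p at 0.095 and to miR-532-5p at 0.11, against a median of 0.37. miR-199a-3p, an miRNA abundant in fibroblasts, had 201, 213 and 246 RPM in mutant and 117, 168 and 136 RPM in WT replicates 1 to 3. miR-532-5p had 191, 201 and 229.9 RPM in mutant and 118, 177 and 135 RPM in WT replicates 1 to 3. In all 3 of these miRNAs mutant replicate 3 was the highest library, WT replicate 1 the lowest and WT replicate 2 the highest WT animal. Neither neighbour passed (miR-199a-3p 0.65 ± 0.23, miR-532-5p 0.54 ± 0.23; limma adjusted p = 0.0823 and 0.168). Of the 21 other settings, miR-199a-3p passed in 3, the same 3 as miR-10b, and miR-532-5p in 2. miR-10a was far from this profile, at place 155 of the 192 others with 0.51. These distances are descriptions over 6 libraries that share their totals.

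**Figure D4:**
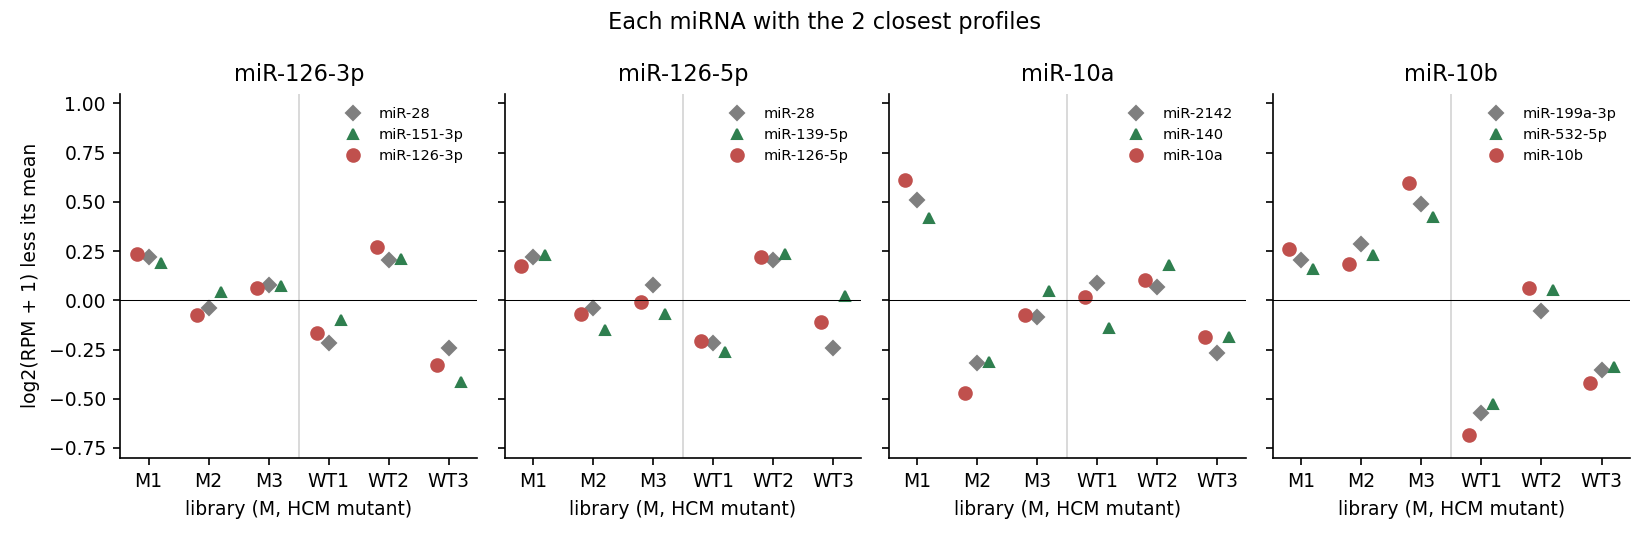
Centred log2(RPM + 1) of each of the 4 miRNAs (red circles) and of the 2 tested miRNAs with the closest profile (grey diamonds and green triangles) in the 3 HCM mutant (M) and 3 WT libraries; libraries have no order within a group. miR-10b, miR-199a-3p and miR-532-5p share the lowest library, WT replicate 1, and both miR-126 arms share a high WT replicate 2 with their neighbours.

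Marker miRNAs of other cell types were set beside these values. The 4 measured fibroblast miRNAs (miR-21, miR-214 and both arms of miR-199a) summed to 3931 to 8512 RPM in the mutant and 1613 to 3040 RPM in WT libraries; miR-199b was not found by its name. Of them 3 passed as higher, with a median log2 difference of 1.27, against 0.15 over all tested. miR-21, with a mean of 3342 RPM, made up most of this fibroblast sum, and all 4 had a log2 difference above 0. The 6 leukocyte miRNAs summed to 2159 to 2431 RPM in the mutant and 1386 to 1813 RPM in WT libraries, and 1 passed as higher, miR-142-3p. miR-142-3p, with a mean of 1396 RPM, made up most of this sum, and 4 of the 6 had a log2 difference above 0. Both sums were higher in each mutant than in every WT library, as miR-10b was and as 18.1% of the single miRNAs tested were. Their part in the miR-10b difference was not tested. Of the 10 listed endothelial miRNAs, which include the 2 miR-126 arms, 9 were tested and 0 passed, with RPM differences above 0 for all 9, against 137 of all 193 tested, and a median of 0.31. After median-of-ratios scaling, both miR-126 arms were below 0 (−0.011 for miR-126-3p, −0.094 for miR-126-5p), and 96 of the 193 were above 0. Under that scaling miR-23b (0.35) and miR-27b (0.44) of the same list stayed above 0. The list summed to 81935 to 90789 RPM in the mutant and 62889 to 87736 RPM in WT libraries. The 2 miR-126 arms made up 41.4%, 37.2% and 36.3% of this sum in mutant replicates 1 to 3, and 44.2%, 43.6% and 42.8% in WT replicates 1 to 3. Their share was lower in each mutant than in every WT library, though neither arm had a lower mean RPM in the mutant. The share also depends on the other listed miRNAs. It was not a planned comparison and was not tested, and the groups did not overlap for 20.7% of the single miRNAs tested. In the same list miR-23b had a log2 difference of 0.51 ± 0.17 and miR-27b 0.60 ± 0.21 (SE; limma adjusted p = 0.0747 for each), and many cell types express both. miR-23b passed in 6 and miR-27b in 5 of the 21 other settings, and miR-27b was named after its values were seen. The smooth muscle pair, miR-143 and miR-145, summed to 28277 to 34755 RPM in the mutant and 24018 to 33615 RPM in WT libraries. The 3 erythroid miRNAs summed to 2056 to 2566 RPM in the mutant and 2072 to 2855 RPM in WT libraries, and 0 members of either list passed.

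RPM are shares of a total, and the 5 other scalings of RPM moved the median of all tested miRNAs by −0.10 to −0.18 on the log2 scale. The differences of miR-126-3p, miR-126-5p and miR-10a lay close enough to 0 for this to turn their sign. miR-10b was above 0 in the 21 other settings, with log2 differences from 0.51 to 0.90, and passed in 3 of them. After median-of-ratios scaling its difference was 0.54 (limma adjusted p = 0.153), and after TMM scaling 0.59 (limma adjusted p = 0.150). Its groups did not overlap, which fixes its sign when a library is left out.

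**Figure D5:**
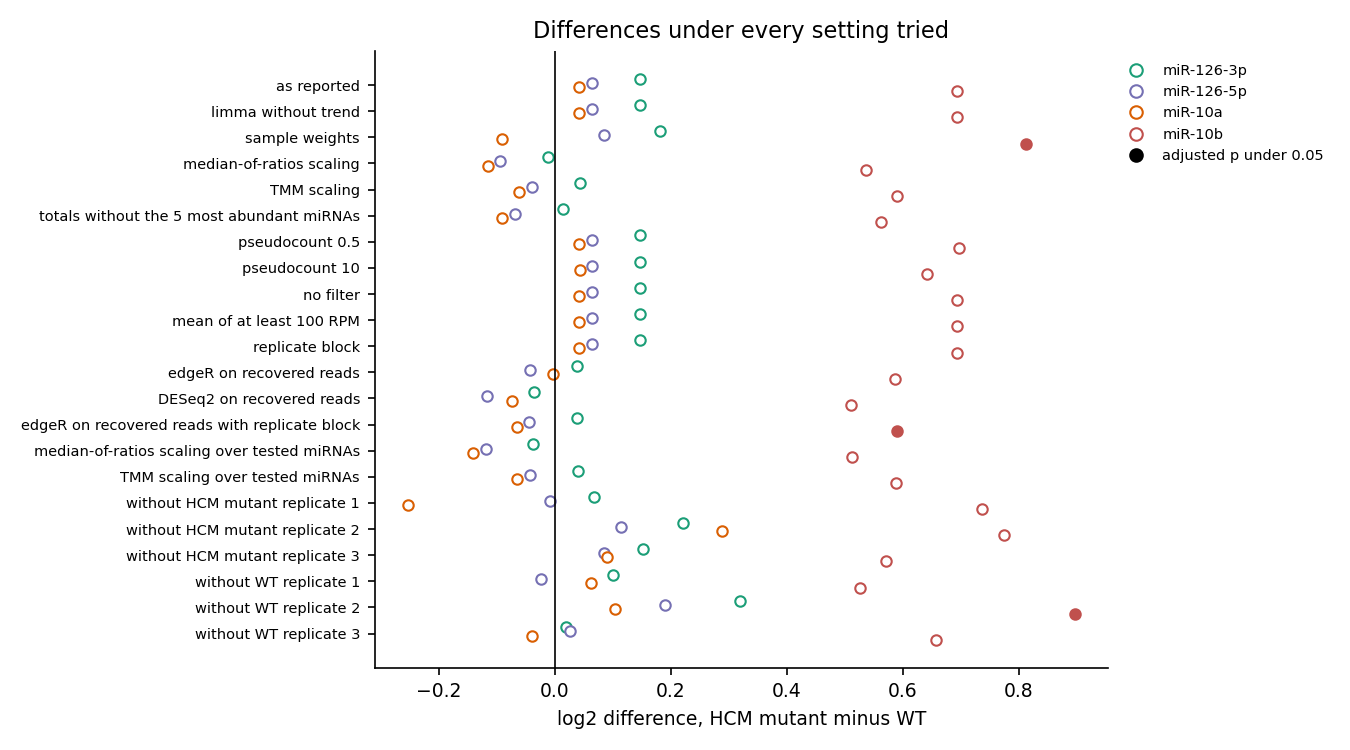
log2 difference, HCM mutant minus WT, of each of the 4 miRNAs as reported and under the 21 other settings; filled circles mark a Benjamini-Hochberg adjusted p under 0.05. miR-10b lies between 0.51 and 0.90 and is filled in 3 settings, while the other 3 miRNAs scatter around 0, from −0.25 to 0.32.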

How the data were processed

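Small RNA libraries of the left ventricle were made from total RNA with a miRNA isolation kit and a multiplexed miRNA library protocol, per the labels' protocols. The authors deposited normalised values, identified from the values as reads per 1000000 miRNA reads (RPM). Divided by the step of 1 read, 100% of the values in each library came out whole within 0.02, so reads could be recovered. The sources used here name no aligner, counter, genome build or miRNA release. In the copy used, 2 lines are empty and not analysed here.

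log2(RPM + 1) was tested with limma 3.58.1 in R 4.3.3 (trend, two-sided, Benjamini-Hochberg over the 193 miRNAs averaging 10 RPM or more), without covariates. Beside the 4 miRNAs, the text names the minor arms of miR-10, for each of the 4 the 2 miRNAs with the closest profile, neighbours in level, relatives miR-99a, miR-99b and miR-100, detected miRNAs of the Hox clusters, and of each marker list the members that passed or else the 2 most abundant. Others are said to be named after their values were seen. Members and lists were chosen with earlier results of these data known. Alternatives included edgeR 4.0.16 and DESeq2 1.42.0 on the recovered reads, which were checked with limma on simulated data. Libraries of a group differed by more than sampling noise of reads. Sequences came from the deposited table and RefSeq (GRCm38.p6), and annotation from GENCODE M21. limma intervals and p-values rest on the spread between animals, with the spread of each miRNA drawn towards the trend over the 193 tested. The intervals of miR-10a and miR-10b are therefore narrower than their own spread in 3 animals a group would give. Wilson and exact rate intervals hold counting error alone; the labels mention no molecular identifiers. Python 3.11.15, scipy 1.17.1 and matplotlib 3.10.9 were used.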

Additional observations from a re-analysis of the deposited data

How the results depend on the processing

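With 3 animals a group, the count of calls over all miRNAs changed with the processing. Against 10 calls, sample weights gave 37, median-of-ratios scaling 6, TMM scaling 4 and leaving out a library 1 to 24, with 24 without HCM mutant replicate 1, and 5, 22 and 1 without WT replicates 1, 2 and 3. Scaling factors were at first computed over the tested miRNAs only. After their calls were seen, they were replaced by factors over all miRNAs of the table, and the first version is kept as an alternative chosen after seeing the data. It gave 5 calls with median-of-ratios scaling and 7 with TMM, and log2 differences of miR-10b of 0.51 and 0.59 (limma adjusted p = 0.146 and 0.125). The cause was not tested.

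miR-10b passed with sample weights (0.81), with edgeR and the replicate block (0.59) and without WT replicate 2 (0.90). Its adjusted p ran from 0.0109 to 0.463 over its alternatives, and its difference from 0.53 to 0.90 with each library left out. Differences that changed sign did so without passing. After median-of-ratios scaling they were −0.011 for miR-126-3p, −0.094 for miR-126-5p, −0.11 for miR-10a and −0.016 for miR-99a, and over the tested miRNAs only −0.037, −0.12, −0.14 and −0.041. With TMM they were −0.040 for miR-126-5p and −0.061 for miR-10a, and over the tested miRNAs only −0.043 and −0.064. With totals without the 5 most abundant miRNAs they were −0.069 for miR-126-5p and −0.090 for miR-10a. With DESeq2 they were −0.036 for miR-126-3p, −0.12 for miR-126-5p, −0.074 for miR-10a and −0.049 for miR-99a. edgeR gave −0.043 for miR-126-5p and −0.0029 for miR-10a, and −0.045 and −0.064 with the block. Sample weights gave −0.090 for miR-10a. With each library left out, miR-126-5p ranged from −0.023 to 0.19 and miR-10a from −0.25 to 0.29. Likewise, the log2 ratio of miR-126-5p to miR-126-3p ranged from −0.13 to 0.0061, miR-126-3p to miR-10a from −0.068 to 0.32, miR-126-5p to miR-10a from −0.17 to 0.25, and miR-10a to the heart muscle miRNAs from −0.12 to 0.49.

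The labels do not say that replicate numbers pair animals. Same-numbered deviations correlated at 0.51, −0.074 and 0.18, and differently numbered ones at −0.42 to 0.40. With the replicate block limma called 17 miRNAs and edgeR 33. The blocked limma adjusted p of miR-10b was 0.0508, and the paired sign-flip test of the ratios allows no p below 0.25. The 2 closest profiles stayed among the first 5 in at least 10 of 11 settings for each of the 4 miRNAs.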
